A study of Homo sapiens with 9 samples.

Results

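The 10 genes ATOH1, SPDEF, TFF1, TFF2, TFF3, REG4, FCGBP, AGR2, CLCA1 and SPINK4 were chosen as genes of mucus-secreting (goblet) and other secretory cells of the intestine. Not all are particular to goblet cells, and TFF1 and TFF2 are best known from the stomach. They were taken by name from the 23284 gene symbols measured in each library. All 10 were found, each on 1 entry. Paired-end RNA-Seq was run on HT-29 cells, an established epithelial line from a human colon tumor, in 9 cultures that fall into 3 groups of 3. The control group had the vehicle dimethyl sulfoxide alone (0 µM), and the other groups received 5 µM or 10 µM of 5-Aza-deoxycytidine (5-Aza) for 5 days. 5-Aza is a cytidine analog that is built into DNA and traps the enzymes that methylate it. All groups are cultures of 1 tumor line, so no normal goblet cells were measured. The labels call the replicates biological and give no passage or day, so p-values measure the spread between these cultures.

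In the intestinal epithelium, secretory and absorptive cells come from shared progenitors. Notch signalling, through the repressor HES1, holds back the transcription factor ATOH1, and cells that express ATOH1 become goblet, enteroendocrine or Paneth cells. SPDEF, a transcription factor of the ETS family, promotes the maturation of goblet cells. Mature goblet cells secrete the gel-forming mucin MUC2 together with trefoil peptides, FCGBP, CLCA1 and other proteins, and AGR2 helps to fold mucins in the endoplasmic reticulum.

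Values are FPKM (fragments scaled to the length of the gene model and to the size of the library) as deposited. They sum to between 3.69e+09 and 5.91e+09 per library, so an FPKM serves here as a relative value. An estimated 15144992 to 41164325 fragments stand behind each library, with the fewest in 10 µM replicate 1. The 12 epithelial markers chosen for the line were above 0 in every group, led by the keratins KRT8 and KRT18. A difference was called where limma's Benjamini-Hochberg adjusted p, over all genes tested, was at most 0.05 and the fold change exceeded 2 on the log2(FPKM + 1) scale. All 10 genes passed the filter on low values (largest FPKM of at least 10) in every comparison. On this scale the filter removes little, since 1 fragment of the pseudogene CLCA3P was worth 185 FPKM in 5 µM replicate 3. All 10 were also kept by a filter of at least 10 estimated fragments in 1 replicate. That filter left 14035 rather than 20051 genes at 5 µM against the control.

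At 5 µM, limma called 6 of the 10 genes higher than in the control: ATOH1, TFF1, TFF2, REG4, FCGBP and SPINK4. None was called lower, and SPDEF was the 1 gene with a negative difference at an unadjusted p under 0.05. Of all 20051 genes tested, 14.1% were called higher and 2.17% lower. At 10 µM, 4 genes were called higher than in the control (TFF1, TFF2, REG4 and SPINK4) and AGR2 was called lower, where 4.07% and 3.40% of 18928 genes were called. Between the doses, all 10 differences were negative, and 24.4% of 20085 genes tested had a positive one. TFF2, AGR2 and SPINK4 were called lower at 10 µM than at 5 µM, where 4.82% of all genes were. Limma called none of the 10 higher at 10 µM than at 5 µM, 0 also at an unadjusted p under 0.05, against 0.129% of all genes. The 5 µM and 10 µM comparisons share the control cultures, and the comparison of the doses shares the treated ones. In such bulk libraries, more cells of a type and more RNA per cell cannot be told apart.

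**Figure D1:**
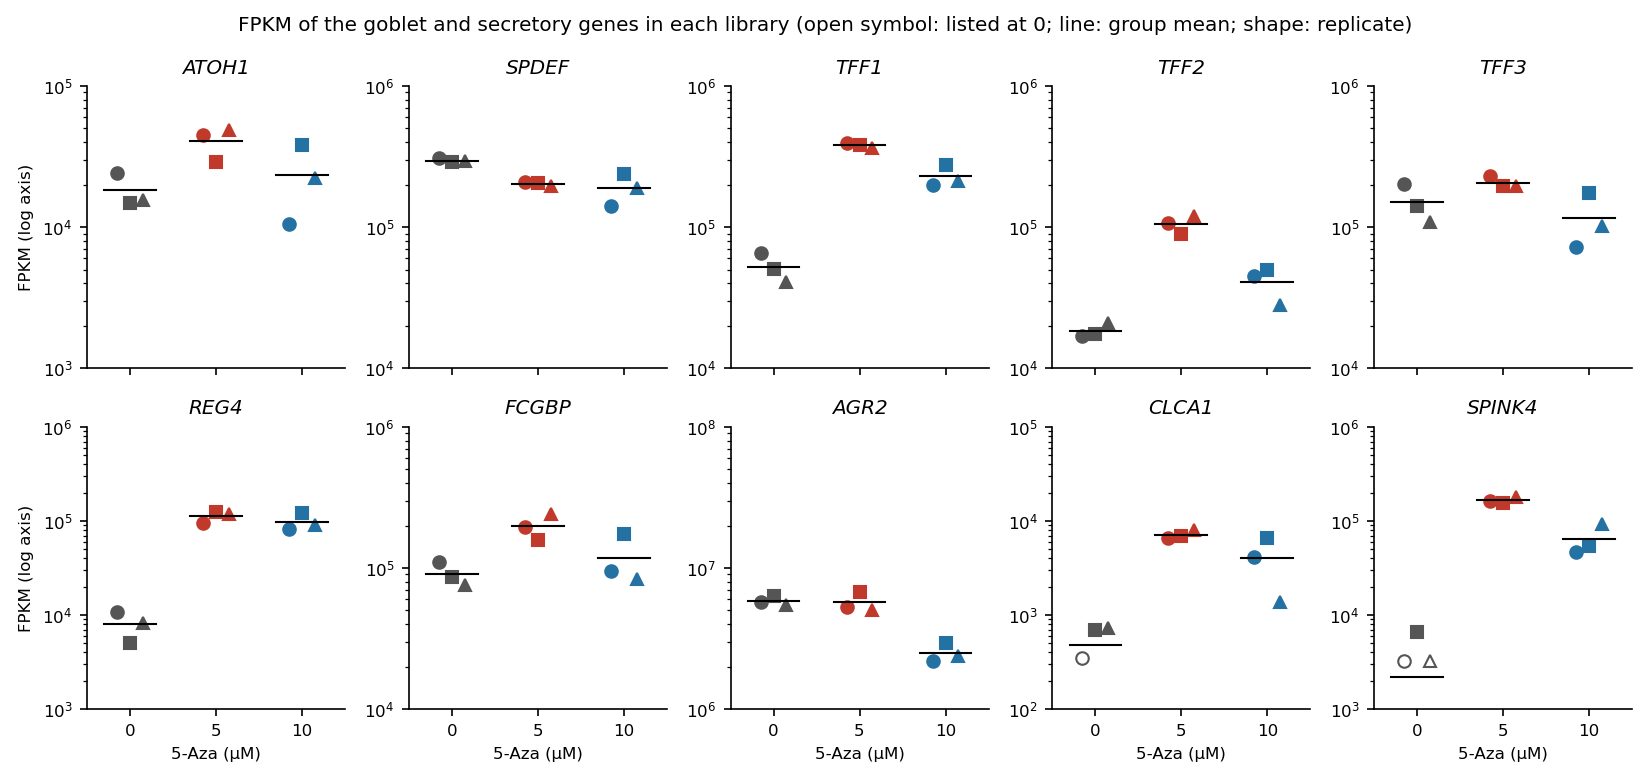
FPKM of the 10 genes in each of the 9 libraries (log axis) against the 5-Aza concentration in µM; symbol shapes mark the replicates, lines the group mean, and an open symbol a library listed at 0, drawn below that gene's lowest value above 0. REG4 and SPINK4 stand far above the control at both doses, while AGR2 overlaps the control at 5 µM and is lower at 10 µM.

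The difference of 10 µM from the control depends on how the libraries are scaled. Over all genes tested, the median log2 difference was 0.14 at 5 µM and -0.15 at 10 µM. It became 0.18 and 0.08 with median-of-ratios scaling, and 0.42 and 0.22 with total scaling. At 10 µM, 771 genes were called higher and 644 lower with the values as deposited. The numbers were 1125 and 284 with median-of-ratios scaling and 1363 and 164 with total scaling.

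ATOH1, the basic helix-loop-helix factor that starts the secretory fate, was called higher at 5 µM and not at 10 µM. The gene (ENSG00000172238) lies at chr4:94749904-94752115 on the plus strand (GRCh37, as for all gene positions here). Its FPKM was 24173, 14824 and 15514 in control replicates 1 to 3. It was 44663, 28984 and 49055 in the 5 µM replicates, and 10567, 37892 and 22098 in the 10 µM replicates. All 5 µM libraries lay above all control libraries, while the 10 µM libraries spread from below the lowest control to above the highest. In each library the values of ATOH1 are whole multiples of what 1 fragment is worth there, and they come to 89 fragments in the control, 335 in the 5 µM cultures and 142 in the 10 µM cultures. Depth differs between the groups. Allowing for what 1 fragment is worth in each library, the rate was 2.41 times that of the control at 5 µM (exact 95% interval 1.90 to 3.08). At 10 µM it was 1.49 times (1.13 to 1.96), and both intervals cover counting error only. The log2 difference at 5 µM was 1.17 (SE 0.28, adjusted p = 0.0180), and at 10 µM it was 0.22 (95% interval -0.87 to 1.32, adjusted p = 0.743). The call at 5 µM is lost without control replicate 2 (adjusted p = 0.0527), without 5 µM replicate 1 (0.0734) or without 5 µM replicate 3 (0.0738), and the difference at 10 µM turned to -0.21 without 10 µM replicate 2. Between the doses the difference was -0.95 (adjusted p = 0.245), and -1.38 (adjusted p = 0.0496) without 10 µM replicate 2.

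SPDEF was lower in every treated library than in any control library, by less than 2-fold in the fit. The gene (ENSG00000124664) lies at chr6:34505579-34524110 on the minus strand. Its FPKM was 308854, 287975 and 291723 in the control, 209458, 203951 and 194526 in the 5 µM cultures, and 140025, 239464 and 189410 in the 10 µM cultures. Against the control, the log2 difference was -0.55 at 5 µM (SE 0.06, adjusted p = 0.00116) and -0.68 at 10 µM (SE 0.20, adjusted p = 0.0578). Between the doses it was -0.13 (95% interval -0.60 to 0.34). With total scaling the differences from the control were -0.26 at 5 µM and -0.30 at 10 µM. ATOH1 and SPDEF thus had differences of opposite sign at 5 µM, each without overlap of the libraries.

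The 3 trefoil factors are small disulfide-rich peptides that mucous cells secrete with mucins. TFF3 is the trefoil peptide of intestinal goblet cells, whereas TFF1 and TFF2 are best known from the stomach. Their genes lie side by side on the minus strand of chromosome 21 within 54868 bases: TFF3 (ENSG00000160180, chr21:43731777-43735519), TFF2 (ENSG00000160181, chr21:43766466-43771106) and TFF1 (ENSG00000160182, chr21:43782391-43786644). TFF1 and TFF2 rose at both doses, and TFF3 passed the test at neither.

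The FPKM of TFF1 was 65724, 50783 and 41040 in the control libraries. It reached 391624, 382174 and 366073 in the 5 µM cultures, and 198236, 276798 and 210826 in the 10 µM cultures. The 3 groups did not overlap, with 5 µM highest. The log2 difference from the control was 2.88 at 5 µM (SE 0.17, adjusted p = 0.000202) and 2.13 at 10 µM (SE 0.21, adjusted p = 0.00367). Between the doses it was -0.75 (adjusted p = 0.0359), which is less than 2-fold.

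TFF2 followed the same order at a lower level. Its FPKM was 16995, 17395 and 20983 in the control, 107262, 89896 and 120677 in the 5 µM cultures, and 44980, 50003 and 28147 in the 10 µM cultures. Against the control, the log2 difference was 2.52 at 5 µM (SE 0.15, adjusted p = 0.000202) and 1.12 at 10 µM (SE 0.26, adjusted p = 0.0324). Between the doses it was -1.40 (SE 0.24, adjusted p = 0.0196), with no overlap. The 10 µM call against the control is lost without any 1 of control replicates 1, 2 and 3 or 10 µM replicate 1 (adjusted p 0.0640 to 0.116), and falls under 2-fold without 10 µM replicate 2 (0.95). The call between the doses is lost without any 1 of the 5 µM replicates (adjusted p 0.0676 to 0.120).

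TFF3 was the highest of the 3 genes in each control library, at 202266, 140267 and 107894 FPKM. It had 228878, 194831 and 194325 FPKM at 5 µM, and 72795, 173873 and 102344 at 10 µM. Both treated groups overlapped the control. The log2 difference was 0.50 at 5 µM (95% interval -0.05 to 1.05, adjusted p = 0.125) and -0.41 at 10 µM (95% interval -1.23 to 0.40, adjusted p = 0.430). All 10 µM libraries lay below all 5 µM libraries, with a difference of -0.91 (adjusted p = 0.126) that became -1.25 (adjusted p = 0.00974) without 10 µM replicate 2.

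Within a library, where the scaling cancels, the balance of TFF1 to TFF3 differed between control and treated cultures. The ratio of TFF1 to TFF3 lay between 0.325 and 0.380 in the control, between 1.71 and 1.96 at 5 µM and between 1.59 and 2.72 at 10 µM. TFF3 thus exceeded TFF1 in all 3 control libraries and TFF1 exceeded TFF3 in all 6 treated ones. The exact 2-sided permutation test of the log2 ratio gave p = 0.1 for each dose against the control, the smallest value that 3 against 3 cultures allow, and p = 0.6 between the doses. The ratio of TFF2 to TFF3 was also higher without overlap, from 0.0840-0.194 in the control to 0.461-0.621 at 5 µM and 0.275-0.618 at 10 µM (exact permutation p = 0.1 for each dose). The ratio of TFF1 to TFF2 overlapped between the control (1.96 to 3.87) and 5 µM (3.03 to 4.25), and was above both at 10 µM (4.41 to 7.49).

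**Figure D2:**
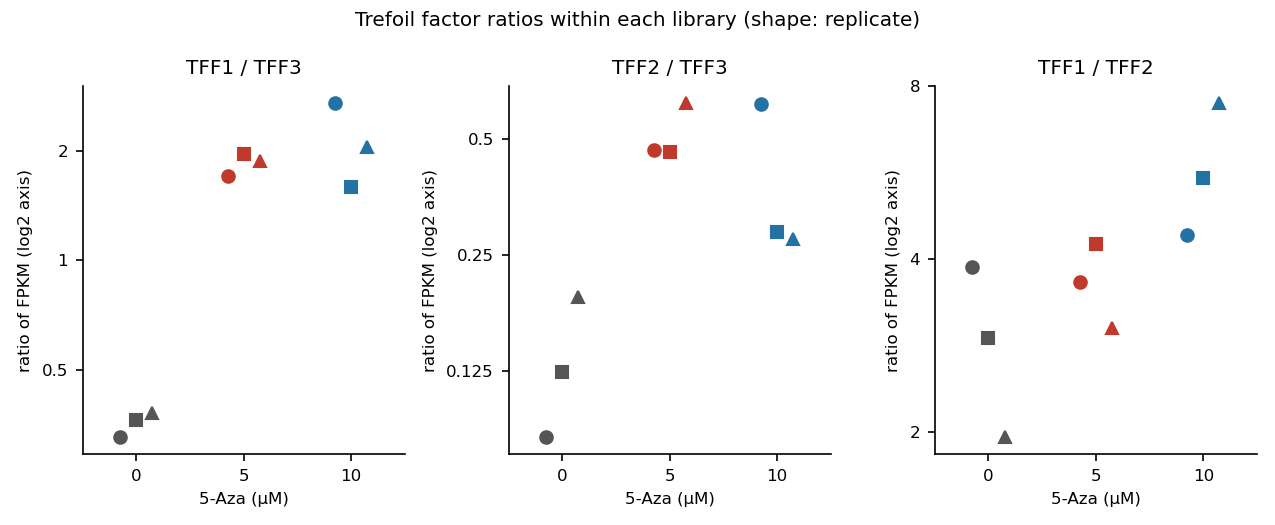
Ratio of the FPKM of 2 trefoil factors within each library (log2 axis) against the 5-Aza concentration in µM; symbol shapes mark the replicates. The ratios of TFF1 to TFF3 and of TFF2 to TFF3 are lowest in the 3 control libraries, and that of TFF1 to TFF2 is highest at 10 µM.

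Of the 6 other genes taken around the trefoil cluster, limma called none in any comparison. SLC37A1, a sugar-phosphate exchanger, had a log2 difference of -0.49 at 5 µM (adjusted p = 0.00116) and -0.63 at 10 µM (adjusted p = 0.0185), both under 2-fold. TMPRSS3, a membrane serine protease, had 0.70 at 5 µM (adjusted p = 0.137).

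REG4, a secreted C-type lectin of goblet and enteroendocrine cells, had the largest log2 difference from the control among the 8 genes above 0 in every library, at both doses. The gene (ENSG00000134193) lies at chr1:120336640-120354203 on the minus strand. Its FPKM was 10799, 5090 and 8298 in the control, 95486, 125421 and 118816 in the 5 µM cultures, and 82263, 121278 and 89703 in the 10 µM cultures. Every treated library was above every control library, and the doses overlapped. The log2 difference was 3.87 at 5 µM (SE 0.29, adjusted p = 0.000343) and 3.65 at 10 µM (SE 0.31, adjusted p = 0.00267), and between the doses it was -0.22 (95% interval -0.67 to 0.23). Both calls against the control were made under each of the 19 alternative settings. In the REG family, REG1A, REG1B, REG1P and REG3A were listed at 0 in all 9 libraries. REG3G had 1, 2 and 0 fragments in the 5 µM replicates and was listed at 0 elsewhere.

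SPINK4, a Kazal-type protease inhibitor of goblet cells, was near the limit of detection in the control and had many more fragments after treatment. The gene (ENSG00000122711) has the annotated span chr9:33218363-33248565 on the plus strand, which overlaps BAG1, and the library kit does not record strand. SPINK4 was listed at 0 in control replicates 1 and 3 and had 6524 FPKM, worth 2 fragments, in control replicate 2. At 5 µM it had 163813, 155150 and 181836 FPKM (80, 72 and 95 fragments), and at 10 µM 46508, 53956 and 92630 FPKM (12, 22 and 32 fragments). The 3 groups did not overlap. Allowing for what 1 fragment is worth in each library, the rate of fragments was 79.0 times that of the control at 5 µM (exact 95% interval 21.6 to 656) and 30.8 times at 10 µM (8.19 to 259). Such intervals cover counting error only. The ratio of 10 µM to 5 µM was 0.390 (0.292 to 0.513), and limma gave a log2 difference of -1.44 (adjusted p = 0.0214).

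The fitted differences of SPINK4 from the control were 13.12 at 5 µM (adjusted p = 0.0246) and 11.68 at 10 µM (adjusted p = 0.0489), and depend on the pseudocount because 2 control values are 0. With a pseudocount of 1000 they were 6.42 (adjusted p = 0.000691) and 5.00 (adjusted p = 0.00907). Leaving out any 1 library other than control replicate 2 ended the call at 5 µM (adjusted p 0.0574 to 0.0886) and at 10 µM (0.0739 to 0.154). The call between the doses ended without any 1 of the 5 µM replicates (adjusted p 0.0948 to 0.130).

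Of the other SPINK genes, SPINK1, a trypsin inhibitor, had 2610730 ± 319426 FPKM (mean ± SD, n = 3, as for all values written so) in the control and 4642200 ± 368878 at 5 µM, a log2 difference of 0.83 (adjusted p = 0.00325) that is under 2-fold. SPINK5, an inhibitor with several domains, rose from 10658 ± 1664 FPKM to 48663 ± 9040 in the 5 µM cultures and 58450 ± 11048 in the 10 µM cultures (log2 differences 2.19 and 2.45, adjusted p = 0.000564 and 0.00325). The remaining 7 members of the family were listed at 0 in all control libraries.

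FCGBP, a large mucus protein that is linked to MUC2, rose at 5 µM. The gene (ENSG00000275395) lies at chr19:40353963-40440533 on the minus strand and holds near-identical internal repeats, so its FPKM is uncertain where reads match several repeats. Its FPKM was 109824, 86050 and 75450 in the control, 195298, 159091 and 241155 in the 5 µM cultures, and 95137, 173143 and 83554 in the 10 µM cultures. The 5 µM libraries lay above the control libraries, and at 10 µM replicate 2 alone stood above them. The log2 difference was 1.13 at 5 µM (SE 0.20, adjusted p = 0.00549) and 0.32 at 10 µM (95% interval -0.36 to 0.99, adjusted p = 0.469). It was 0.98 without 5 µM replicate 3, just under 2-fold. Between the doses it was -0.81 (adjusted p = 0.154), and -1.13 (adjusted p = 0.0145) without 10 µM replicate 2.

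CLCA1, a secreted protease of the mucus layer, had few fragments in the control and more in every treated library, and was not called. The gene (ENSG00000016490) lies at chr1:86934051-86965942 on the plus strand. CLCA1 was listed at 0 in control replicate 1 and had 695 and 737 FPKM (4 and 6 fragments) in control replicates 2 and 3. It had 6650, 6884 and 7949 FPKM (61, 60 and 78 fragments) at 5 µM, and 4127, 6660 and 1387 FPKM (20, 51 and 9 fragments) at 10 µM. All treated libraries lay above all control libraries. The rate of fragments was 12.7 times that of the control at 5 µM (exact 95% interval 6.78 to 26.9) and 7.46 times at 10 µM (3.85 to 16.2). The adjusted p of limma was 0.0920 at 5 µM and 0.164 at 10 µM. Without control replicate 1, the library at 0, the 5 µM difference was 3.32 (adjusted p = 0.00128), and with a pseudocount of 1000 it was 2.51 (adjusted p = 0.000427). In the CLCA family, CLCA4 had 528, 506 and 0 FPKM in the control and 635, 1849 and 2772 at 5 µM (adjusted p = 0.196). The pseudogene CLCA3P was called higher at both doses on 3, 1 and 1 fragments at 5 µM and 1, 1 and 1 at 10 µM, where the call is lost without any 1 library other than 10 µM replicate 2.

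AGR2, a protein disulfide isomerase of the endoplasmic reticulum, was the most abundant of the 10 in every library and had another dose pattern. The gene (ENSG00000106541) lies at chr7:16831435-16873057 on the minus strand. Its FPKM was 5756320, 6288690 and 5508880 in the control, 5283720, 6805330 and 5018430 in the 5 µM cultures, and 2201420, 2926980 and 2384240 in the 10 µM cultures. AGR2 stood at 98.9% to 99.6% in the ranking of genes above 0 in each library, where 100% would be the highest gene. The 5 µM and control libraries overlapped, while each 10 µM library lay below all others. The log2 difference was -0.05 at 5 µM (95% interval -0.41 to 0.31), -1.23 at 10 µM (SE 0.24, adjusted p = 0.0209) and -1.18 between the doses (SE 0.25, adjusted p = 0.0390). The difference at 10 µM was -0.99 with median-of-ratios scaling (adjusted p = 0.00613) and -0.85 with total scaling (adjusted p = 0.00539), both under 2-fold. That call is also lost without any 1 control replicate or 10 µM replicate 3 (adjusted p 0.0585 to 0.0997), and the call between the doses without any 1 of the 5 µM replicates or 10 µM replicate 3 (0.125 to 0.140). With median-of-ratios scaling the difference between the doses was -0.98 (adjusted p = 0.0181), under 2-fold.

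AGR3, the neighbouring paralog of AGR2, was called lower at 10 µM too. Its FPKM was 201738 ± 16051 in the control, 153788 ± 17967 in the 5 µM cultures and 83844 ± 24201 in the 10 µM cultures. The log2 difference was -0.39 at 5 µM (adjusted p = 0.0289), under 2-fold, and -1.302 at 10 µM (adjusted p = 0.0122). The 10 µM call is lost without control replicate 2 or 10 µM replicate 3, without the intensity trend, and with total scaling (-0.92). Within a library there was 26.4 to 31.4 times as much AGR2 as AGR3 in the control, 33.5 to 39.2 times at 5 µM and 26.3 to 33.9 times at 10 µM. Of the other 7 genes tested at the locus, limma called none. BZW2 had a log2 difference of -0.58 at 5 µM (adjusted p = 0.0169) and AHR of -0.80 at 10 µM (adjusted p = 0.0707).

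AGR2 made up 88.6% to 91.2% of the summed FPKM of the 10 genes in the control, 77.3% to 83.5% at 5 µM and 72.1% to 76.0% at 10 µM, 3 ranges that did not overlap. The summed FPKM of the other 9 genes was 561639-738635 in the control, 1346380-1474410 in the 5 µM cultures and 694636-1133070 in the 10 µM cultures, where the lowest library lay within the control range. Among the 10 µM cultures, replicate 2 had the highest FPKM for 9 of the 10 genes, SPINK4 being the exception. That library also had the highest summed FPKM over all genes of its group, 5.08e+09, and the part of this in the levels of the 9 genes was not tested.

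**Figure D3:**
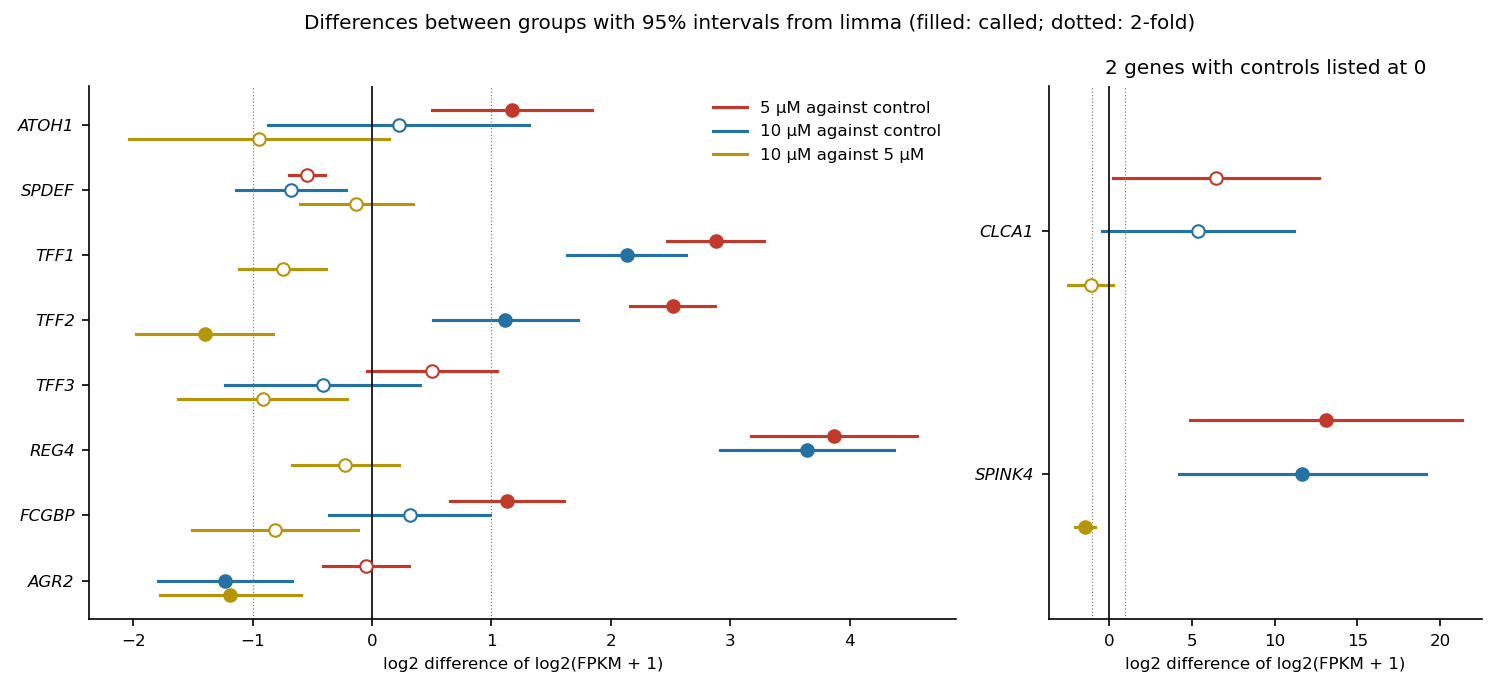
Log2 difference of log2(FPKM + 1) between groups for each gene, with its 95% interval from limma; filled points were called, and dotted lines mark 2-fold. CLCA1 and SPINK4 have an axis of their own because control libraries listed at 0 make their intervals wide.

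Over the 10 genes, 7 had all 5 µM libraries above all control libraries (29.4% of all genes tested), SPDEF had all below (23.2%), and TFF3 and AGR2 overlapped. At 10 µM, TFF1, TFF2, REG4, CLCA1 and SPINK4 lay above the control without overlap (14.4% of all genes), and SPDEF and AGR2 below (26.7%). Between the doses, TFF1, TFF2, TFF3, AGR2 and SPINK4 were lower at 10 µM without overlap (25.3%), and none was higher (4.37%). The median log2 difference of the 10 genes was 1.84 at 5 µM, 0.72 at 10 µM and -0.93 between the doses, where that of all genes tested was 0.14, -0.15 and -0.31. Over the 8 genes above 0 in all 6 libraries of the comparison, the medians were 1.15 at 5 µM and 0.27 at 10 µM, against -0.04 and -0.23 for all such genes.

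The promoters of 7 of the 10 genes were found in RefSeq's table (GRCh38.p14), those of ATOH1, SPDEF, REG4, FCGBP, AGR2, CLCA1 and SPINK4. The 250 bases before the transcription start are printed for 5 of them, because a DNA methylation inhibitor was used and CG dinucleotides are where DNA is mainly methylated. The first listed start of each gene was used. Other annotated starts were not examined, so a gene span given above can begin further upstream than the window. ATOH1 has the most CG of the 7, REG4, SPINK4 and CLCA1 had the largest differences from the control at 5 µM, and AGR2 was called lower at 10 µM. Capitals mark each CG.
ATOH1 (chr4:93828503-93828752, plus strand): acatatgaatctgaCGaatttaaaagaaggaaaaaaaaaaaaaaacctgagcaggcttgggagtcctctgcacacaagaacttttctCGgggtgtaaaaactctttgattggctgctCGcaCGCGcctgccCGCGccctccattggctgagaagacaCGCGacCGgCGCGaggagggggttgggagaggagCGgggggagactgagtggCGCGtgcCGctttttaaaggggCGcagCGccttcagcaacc
REG4 (chr1:119811461-119811710, minus strand): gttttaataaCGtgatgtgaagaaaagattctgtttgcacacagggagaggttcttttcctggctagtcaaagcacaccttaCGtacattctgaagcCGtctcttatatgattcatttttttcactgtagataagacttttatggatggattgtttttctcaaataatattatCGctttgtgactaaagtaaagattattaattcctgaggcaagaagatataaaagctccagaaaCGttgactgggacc
SPINK4 (chr9:33239917-33240166, plus strand): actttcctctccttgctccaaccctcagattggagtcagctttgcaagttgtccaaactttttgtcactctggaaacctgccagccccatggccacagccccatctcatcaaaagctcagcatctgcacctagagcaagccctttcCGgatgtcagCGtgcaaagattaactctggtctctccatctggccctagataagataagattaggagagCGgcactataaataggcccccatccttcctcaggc
CLCA1 (chr1:86468677-86468926, plus strand): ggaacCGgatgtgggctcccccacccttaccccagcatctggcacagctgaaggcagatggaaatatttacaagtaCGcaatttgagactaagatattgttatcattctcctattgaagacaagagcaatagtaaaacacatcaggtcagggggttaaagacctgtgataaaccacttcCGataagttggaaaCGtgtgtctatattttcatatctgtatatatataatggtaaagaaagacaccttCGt
AGR2 (chr7:16805000-16805249, minus strand): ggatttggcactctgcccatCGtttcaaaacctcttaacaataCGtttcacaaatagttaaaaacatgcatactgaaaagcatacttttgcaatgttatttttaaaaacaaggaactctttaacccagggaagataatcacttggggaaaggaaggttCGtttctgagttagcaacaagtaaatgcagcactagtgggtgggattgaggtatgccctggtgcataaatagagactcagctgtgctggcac

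The ATOH1 window holds 18 CG, more than 63.2% of 35114 RefSeq promoter windows of this length, whose median is 11 CG (quartiles 3 and 23). SPDEF has 6 CG, REG4 and CLCA1 5 each, FCGBP 4, and AGR2 and SPINK4 3 each. Thus 5 of the 7 windows hold 5 CG or fewer, where 38.1% of all windows do. The windows with few CG belong both to genes with large rises and to AGR2. The letters TATAAA, searched on both strands, occur in REG4, 31 bases before the start, and in SPINK4, 29 bases before it, and in 10.7% of all windows. CAGCTG, which reads alike on both strands, occurs in AGR2 and CLCA1 and in 14.0% of all windows. Methylation itself was not measured in these libraries.

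**Figure D4:**
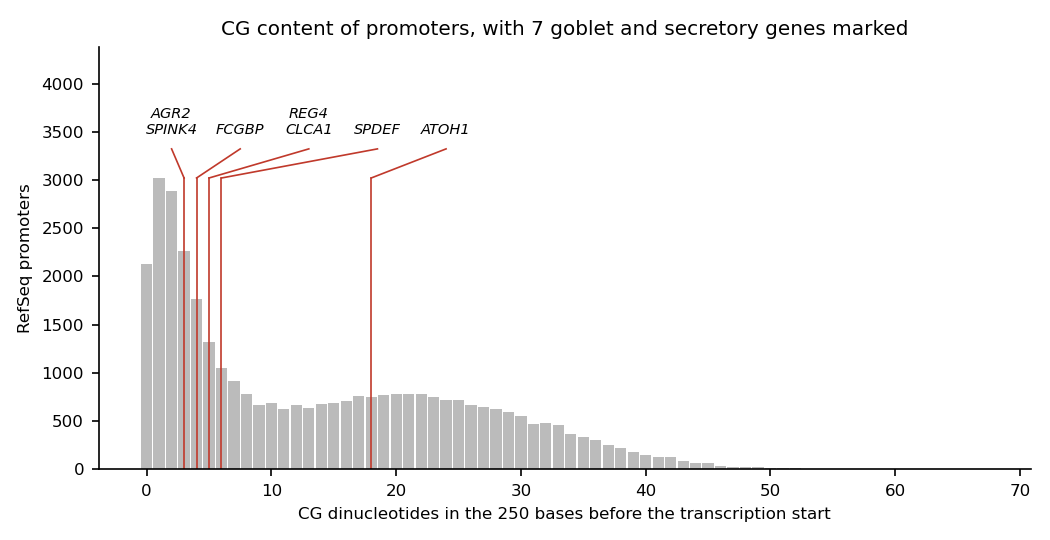
Number of RefSeq promoters (vertical axis) by the count of CG dinucleotides in the 250 bases before the transcription start (horizontal axis), with the 7 goblet and secretory genes marked. AGR2, SPINK4, FCGBP, REG4, CLCA1 and SPDEF stand at 3 to 6 CG and ATOH1 at 18.

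Other genes of goblet cells moved in both directions. Of 36 such genes tested, 15 were called higher and 2 lower at 5 µM, and 8 higher and 4 lower at 10 µM. At an unadjusted p under 0.05, 18 were higher and 11 lower at 5 µM, and 12 higher and 10 lower at 10 µM. Their summed FPKM was 1.53e+07 to 1.63e+07 in the control, 1.30e+07 to 1.35e+07 at 5 µM and 1.08e+07 to 1.36e+07 at 10 µM. The background for every list described here is the share of all genes tested, of which limma called 14.1% higher and 2.17% lower at 5 µM, and 4.07% higher and 3.40% lower at 10 µM. The median log2 difference of the 36 was 0.50 at 5 µM and 0.14 at 10 µM. ZG16, a lectin-like protein of the mucus layer, was listed at 0 in all control libraries and had 43, 51 and 76 fragments at 5 µM and 3, 8 and 12 at 10 µM. RETNLB, a secreted resistin-like molecule, was also listed at 0 in the control and had 4, 3 and 5 fragments at 5 µM and 2, 1 and 2 at 10 µM. ITLN1, a lectin that binds microbial sugars, was listed at 0 in the control and had 1, 3 and 3 fragments at 5 µM.

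B3GNT7, a glycosyltransferase, rose from 635 ± 240 FPKM in the control to 14941 ± 2097 at 5 µM (log2 difference 4.61, adjusted p = 0.000465) and to 4523 ± 549 at 10 µM (2.89, adjusted p = 0.0178). MUC2, the gel-forming mucin itself, had 124499 ± 15697 FPKM in the control and 171921 ± 22328 at 5 µM, a log2 difference of 0.46 (adjusted p = 0.0365) that is under 2-fold. At 10 µM MUC2 had 53919 ± 11326 FPKM and was called lower than the control (-1.22, adjusted p = 0.0119) and lower than at 5 µM (-1.69, adjusted p = 0.00580). RAB3D, a GTPase of secretory granules, fell at both doses (-1.25 and -1.71, adjusted p = 0.000768 and 0.00562), and so did STARD10, a lipid transfer protein (-1.02 and -1.19, adjusted p = 0.000305 and 0.0270). The call of STARD10 at 5 µM is lost without control replicate 2 and with either other scaling (-0.74 with total scaling), and its call at 10 µM without any 1 library other than 10 µM replicate 2 and with either other scaling (-0.82 with total scaling). RAB3D at 5 µM is under 2-fold with total scaling, and the 10 µM call of B3GNT7 is lost without control replicate 2 or 10 µM replicate 1 or 3. Between the doses 6 of the 36 were called lower (4.82% of all genes were), MUC2, ZG16 and B3GNT7 among them. Limma called none higher, and 1 was at an unadjusted p under 0.05. The call of MUC2 against the control is lost without control replicate 2 and with either other scaling, and its call between the doses without 5 µM replicate 3. That of ZG16 between the doses is lost without any 1 of the 5 µM replicates, and that of B3GNT7 without 5 µM replicate 1 or 3. With total scaling none of the 36 was called lower at 5 µM and 1 was at 10 µM, and leaving out 1 library gave 1 to 5 lower at 10 µM, with 1 without control replicate 2 and 2 without 10 µM replicate 3.

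**Figure D5:**
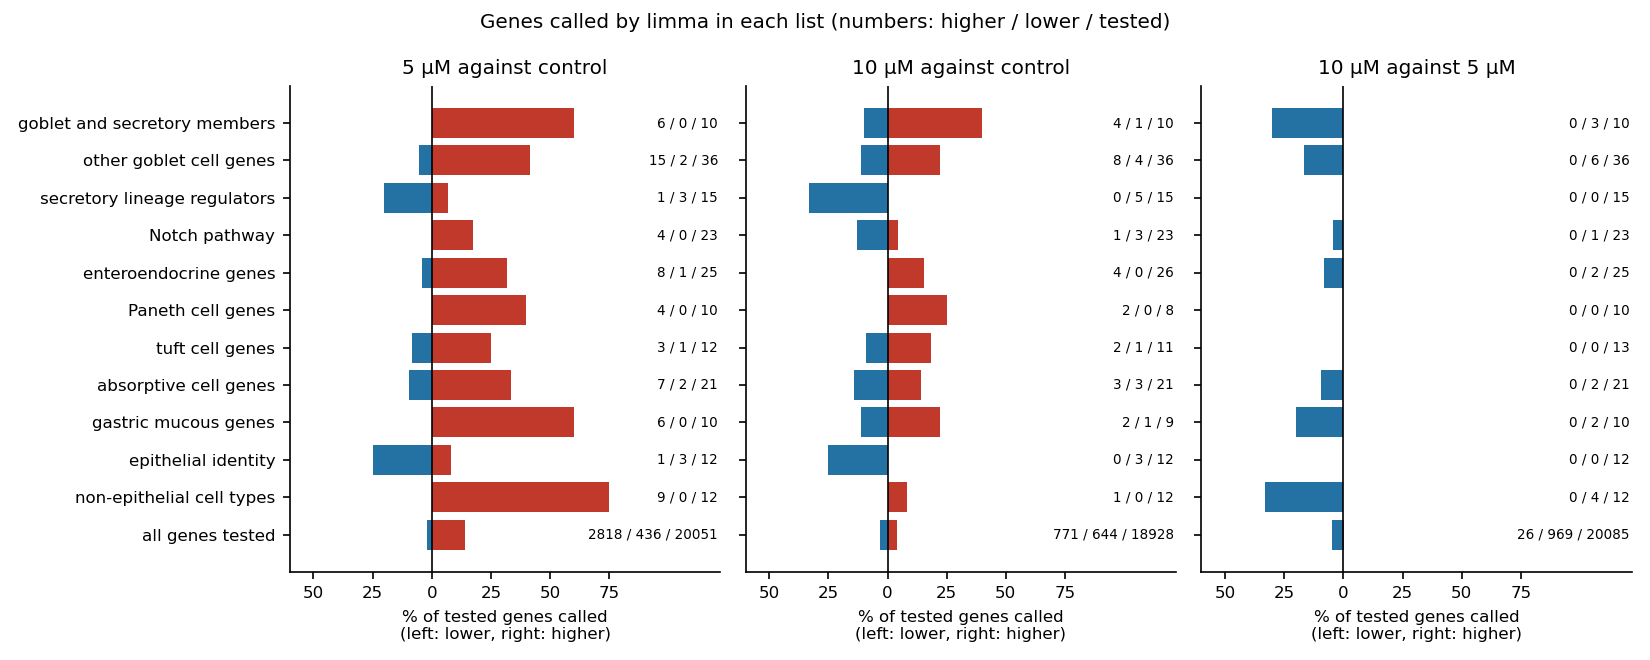
Share of tested genes in each list that limma called higher (right) or lower (left) in the 3 comparisons, with the numbers called higher, called lower and tested beside each bar. At 5 µM every list shown but the regulators and the epithelial genes has more genes called higher than lower, and no listed gene was called higher at 10 µM than at 5 µM.

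Of 15 factors listed as secretory lineage regulators, 3 were called lower and 1 higher at 5 µM, and 5 lower at 10 µM. Whether each of them, HNF4G included, acts in the secretory lineage of these cells was not tested. GFI1, a repressor that acts after ATOH1, was the 1 called higher at 5 µM (5615 ± 2072 to 16939 ± 2494 FPKM, log2 difference 1.64, adjusted p = 0.00649). MYB, HNF4G and ELF3 were called lower there, at -1.27, -1.59 and -1.21 (adjusted p = 0.000919, 0.000378 and 0.000141). At 10 µM, FOXA1, MYB, HNF4G, BHLHA15 and ELF3 were called lower. Limma called none higher there, 0 also at an unadjusted p under 0.05. BHLHA15, a factor that expands the secretory machinery, had a log2 difference of -1.67 (adjusted p = 0.0297). ELF3, an epithelial ETS factor, had 1541650 ± 40149 FPKM in the control and 662845 ± 83269 at 10 µM. The median of the 15 was -0.25 at 5 µM and -0.62 at 10 µM. With total scaling 2 were called higher and 1 lower at 5 µM, and 3 lower at 10 µM, as with median-of-ratios scaling. The 10 µM call of FOXA1 is lost without any 1 library other than 10 µM replicate 2 and with either other scaling (-0.63 with total scaling), that of BHLHA15 without any 1 control replicate or 10 µM replicate 3, that of MYB without control replicate 2, and that of ELF3 with either other scaling. Leaving out 1 library gave 2 to 7 called lower at 10 µM, with 3 without control replicate 1 or 10 µM replicate 3 and 2 without control replicate 2.

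In the Notch pathway, limma called 4 of 23 genes higher at 5 µM and none lower, with 5 lower at an unadjusted p under 0.05, where 14.1% and 2.17% of all genes were called higher and lower. Those called were the receptor NOTCH3 (log2 difference 1.304, adjusted p = 0.00939), the ligand DLL3 (3.01, adjusted p = 0.00132) and the targets HES4 (1.98, adjusted p = 0.000950) and HEYL (1.74, adjusted p = 0.0403). HES1, the target that represses ATOH1, had 824841 ± 26231 FPKM in the control, 493858 ± 54356 in the 5 µM cultures and 404198 ± 92357 in the 10 µM cultures. Its log2 difference was -0.75 at 5 µM (adjusted p = 0.00151), under 2-fold, and -1.06 at 10 µM (adjusted p = 0.0169). At 10 µM the ligand JAG1 (-1.04, adjusted p = 0.0241) and the modifier LFNG (-1.31, adjusted p = 0.00367) were called lower with HES1, and HES4 was the 1 called higher (1.78, adjusted p = 0.00852). With total scaling HES1, JAG1 (-0.66) and LFNG each stayed under 2-fold at 10 µM, and HES1 and JAG1 also with median-of-ratios scaling. The call of JAG1 is lost without any 1 library other than 10 µM replicate 2, and leaving out 1 library gave 1 to 5 called lower at 10 µM, with 1 without control replicate 1 or 2 or 10 µM replicate 1. The call of HEYL at 5 µM is lost without any 1 library other than control replicate 3, and that of HES1 at 10 µM without control replicate 1 or 2 or 10 µM replicate 1. HES5, another target, was the 1 called lower between the doses, as 4.82% of all genes were (-2.27, adjusted p = 0.0207), on 71 fragments at 5 µM and 10 at 10 µM, a call that is lost without any 1 of the 5 µM replicates.

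Genes of the other secretory cell types were also called. Of 25 enteroendocrine genes, 8 were called higher and 1 lower at 5 µM (14.1% and 2.17% of all genes), and 4 of 26 higher at 10 µM (4.07%). The hormone gene GCG, for proglucagon, had 1008 ± 382 FPKM in the control, 47914 ± 14102 in the 5 µM cultures and 11440 ± 2140 in the 10 µM cultures (log2 differences 5.60 and 3.56, adjusted p = 0.000272 and 0.00681). CHGB, a granin, and the factor NEUROD1 were listed at 0 in the control and had 15, 16 and 28 and 6, 2 and 2 fragments at 5 µM. PAX4, an endocrine factor, fell at 5 µM (-2.09, adjusted p = 0.00373). Of 10 Paneth cell genes, DEFA6, PRSS2, ITLN2 and WNT3 were called higher at 5 µM. None was called lower, but LYZ, MMP7 and CD24 were lower at an unadjusted p under 0.05, and leaving out 1 library gave 0 to 2 called lower. LYZ had 8763070, 8777800 and 8530830 FPKM in the control and 3854070, 4737840 and 4592180 at 5 µM. The summed FPKM of the list was 9.83e+06 to 1.04e+07 in the control and 4.90e+06 to 6.00e+06 at 5 µM. DEFA6, a defensin, was listed at 0 in the control and had 28, 20 and 13 fragments at 5 µM and 3, 8 and 2 at 10 µM, and PRSS2 has near-identical trypsinogen copies, so its value is uncertain. ITLN2 was listed at 0 in the control, and its call rests on 1, 1 and 6 fragments at 5 µM. Of 12 tuft cell genes, SH2D7, PTGS1 and IL17RB were called higher at 5 µM and ALOX5 lower. The call of WNT3 is lost without 5 µM replicate 1 or 3, and that of ALOX5 with total scaling.

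Lists outside the secretory lineage of the intestine were called too. Of 10 gastric mucous genes, 6 were called higher at 5 µM, where 14.1% of all genes were, and 3 without 5 µM replicate 3. None was called lower there, but 1 (ANXA10) was lower at an unadjusted p under 0.05. It had 494400, 368776 and 328494 FPKM in the control and 211439, 221156 and 269570 at 5 µM. Against the control, 10 µM gave 2 higher calls and 1 lower among 9 genes. The lower one was ANXA10, whose FPKM exceeded that of every other listed gene in each library. Its log2 difference was -2.05, a call kept under 18 of the 19 alternatives. Between the doses its difference was -1.30, a call kept under 11 of them. Summed FPKM of the list ranged over 414024-576224 without 5-Aza, 457508-546099 with 5 µM and 224804-294758 with 10 µM. SOX2, a factor of stomach and progenitor cells, had 0, 0 and 2 fragments in the control, 81, 96 and 73 in the 5 µM cultures and 15, 42 and 22 in the 10 µM cultures. The mucin MUC1 rose at both doses (3.07 and 1.83, adjusted p = 0.000427 and 0.0236), and its 10 µM call is lost without control replicate 1 or 2 or 10 µM replicate 1 or 3. Of 21 absorptive cell genes, 7 were called higher at 5 µM, ALPI, CA4 and ANPEP among them. ALPI, an intestinal alkaline phosphatase, was listed at 0 in the control and had 29, 28 and 37 fragments at 5 µM. CA4, a carbonic anhydrase, had 0, 0 and 1 fragments in the control and 8, 3 and 3 at 5 µM, with an adjusted p of 0.0498, and its call is lost without any 1 library other than control replicate 3. HNF4A, a nuclear receptor of absorptive cells, fell at 5 µM (-1.15, adjusted p = 0.000477), and is under 2-fold with total scaling. At 10 µM, 3 absorptive genes were called higher and 3 lower (4.07% and 3.40% of all genes), KRT20 (-1.31, adjusted p = 0.0344) and CDX2 (-1.38, adjusted p = 0.00996) among the latter. The call of KRT20 is lost without any 1 library other than 10 µM replicate 2 and with total scaling (-0.93), and that of CDX2 without control replicate 2. Leaving out 1 library gave 0 to 4 called lower, with 0 without control replicate 2 and 1 without control replicate 1 or 10 µM replicate 1.

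Markers chosen for cell types other than epithelium were also called higher, mainly at 5 µM. Of them, 5 were above 0 in all control and 5 µM libraries. Of 12 such markers, of immune, endothelial and fibroblast cells, limma called 9 higher at 5 µM and none lower (0 also at an unadjusted p under 0.05), and 1 higher at 10 µM (COL1A1, lost without control replicate 2 or 10 µM replicate 1 or 3). Of all genes, 14.1% were called higher at 5 µM and 4.07% at 10 µM. Their summed FPKM was 154391-171191 in the control, 815785-870603 in the 5 µM cultures and 265908-429696 in the 10 µM cultures. CD68, an endolysosomal protein of macrophages and other cells, made up most of that sum, with 125260 ± 3312, 671084 ± 18579 and 246110 ± 85383 FPKM. CD3E and CDH5 were listed at 0 in all control libraries, DCN in all 5 µM libraries and COL1A2 in all 10 µM libraries. Some calls at 5 µM rest on few fragments. CD3E had 3, 3 and 4 there and CDH5 5, 2 and 2. COL1A2 had 0, 0 and 1 in the control and 8, 13 and 12 at 5 µM. In the epithelial list, KRT8, KRT18 and KRT19 were called lower at 5 µM and CDX1 higher, and KRT19, KRT20 and CDX2 were called lower at 10 µM, where 2.17% and 3.40% of all genes were called lower. Leaving out 1 library gave 0 to 5 called lower at 10 µM, with 0 without control replicate 2 and 1 without control replicate 1 or 3 or 10 µM replicate 3. The summed FPKM of its 12 genes was 8.90e+07 to 1.06e+08 in the control, 3.74e+07 to 4.15e+07 in the 5 µM cultures and 3.00e+07 to 5.12e+07 in the 10 µM cultures. KRT8 had 39381700 ± 3651360 FPKM in the control and 12559800 ± 598346 at 5 µM (log2 difference -1.65, adjusted p = 0.00113), and its reads can be shared with pseudogene copies. The part of either list in the differences of the 10 goblet and secretory genes was not tested.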

How the data were processed

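RNA from 9 HT-29 cultures, 3 at each of 0, 5 and 10 µM 5-Aza, was sequenced as paired-end reads of 100 bases with a kit that does not record strand. Per the study's methods, the authors trimmed reads with the FASTX-Toolkit, aligned them with TopHat 2.0.1 to hg19 and computed the deposited FPKM per gene with Cufflinks 1.3.0. The annotation version and the Cufflinks options are not given in the sources used here.

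Entries of a repeated symbol were summed (543 symbols repeated among 24934 entries). Genes whose largest FPKM reached 10 in either group were tested with limma 3.58.1 in R 4.3.3 (lmFit, eBayes with trend) on log2(FPKM + 1), over the 6 libraries of each comparison, with Benjamini-Hochberg adjustment over all genes tested. Differences are on this scale, and those of genes with values of 0 depend on the pseudocount. A gene was called where its adjusted p did not exceed 0.05 and it changed by over 2-fold. Ratios within a library were compared by exact 2-sided permutation tests. At genes of 110 nucleotides, 46 of 46 values above 0 were whole multiples of 1 step per library (tolerance 0.01). These steps gave whole fragments for genes with low values, and for 5 of the 10 genes (ATOH1, TFF1, TFF2, CLCA1 and SPINK4). A count test was not run, since whole fragments were not recovered for most genes. Depth was an estimated 15144992 to 41164325 fragments per library.

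The 10 genes and all gene lists were chosen with earlier results of these data known. All 10 genes were described. From each other list the 3 largest rises and the 3 largest falls among the genes called against the control at each dose could be named, from family and locus lists any gene, from the epithelial and non-epithelial lists the 2 highest in the control, and any gene where a count of 5 or fewer needed its name. Of the gastric list, 12 of 13 symbols were found. The values of 1 gene of the absorptive list are not reported here. Gene positions are from GENCODE 44 on GRCh37, and promoters from RefSeq on GRCh38.p14. On simulated data, the fit recovered 100% of 200 genes changed by 2 on the log2 scale in each comparison and called 0 unchanged genes. The changed genes were drawn from those with many fragments, all genes had the same dispersion, and the depth was known. The simulation therefore does not show how the fit treats genes with few fragments or libraries whose scaling is uncertain. Alternatives were another pseudocount, filter, threshold, scaling, set of samples, trend, replicate block and handling of repeated symbols, and leaving out each replicate. Their use on the gene lists was added after seeing the data.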

Additional observations from a re-analysis of the deposited data

How the results depend on the processing

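The 19 alternatives per comparison kept all 10 genes in each fit. At 5 µM, 6 genes were called higher. The number was 3 when limma tested against a 2-fold change, and 3 to 6 when 1 replicate was left out, with 3 without 5 µM replicate 3. No gene was called lower, and 1 (SPDEF) was without a fold threshold. Between the doses, 3 genes were called lower. The number was 0 without the filter on low values, 0 against a 2-fold change, 1 without the intensity trend and 0 to 6 when 1 replicate was left out, with 0 without any 1 of 5 µM replicates 1, 2 and 3 and 6 without 10 µM replicate 2. It was 2 with median-of-ratios scaling. At 10 µM against the control, 4 genes were called higher and 1 lower. These became 2 and 0 without the filter, 1 and 0 against a 2-fold change, and 2 higher without the trend. The gene called lower (AGR2) was lost with median-of-ratios scaling (0) and total scaling (0). Leaving out 1 replicate gave 2 to 3 higher, with 2 without control replicate 1 or 3 or 10 µM replicate 1 or 2, and 0 to 1 lower. The causes were not tested. TFF1, TFF2 and REG4 at 5 µM and REG4 at 10 µM were called under each alternative. ATOH1 at 5 µM was not called in a fit of all 9 samples (adjusted p = 0.0803).

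Differences that changed sign were close to 0. AGR2 at 5 µM was 0.24 with total scaling and -0.18 to 0.0376 when 1 replicate was left out. SPDEF between the doses was 0.0736 with median-of-ratios scaling and -0.31 to 0.0724 when 1 replicate was left out. At 10 µM against the control, ATOH1 ranged from -0.21 to 0.71 and FCGBP from -0.00292 to 0.52 when 1 replicate was left out. No gene of the other lists changed sign in a comparison where it was called, and genes not called were not tried.

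No pairing of the samples by replicate number was detected, a check that cannot exclude a shared day or batch. Deviations from the group means over 15278 genes correlated at -0.07 to 0.09 for the 9 pairs with the same number and at -0.16 to 0.10 for the 18 others. With the replicate block, 6 of the 10 genes were called higher at 5 µM, 1 was called lower between the doses (TFF2 adjusted p = 0.0595, AGR2 0.0732), and 3 were called higher and 0 lower at 10 µM against the control (TFF2 adjusted p = 0.0550, AGR2 0.0619). Over all genes the block gave 2553 higher and 414 lower calls at 5 µM, 11 and 407 between the doses, where 26 and 969 were called without it, and 627 and 567 at 10 µM.

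Over all genes, calls at 5 µM ranged from 1463 higher and 70 lower against a 2-fold change to 4263 and 3553 without a fold threshold. At 10 µM against the control the same settings gave 145 and 16, and 1020 and 1837. Alternatives tried on the gene lists after seeing the data called 10 to 18 other goblet cell genes higher at 5 µM and 2 to 11 at 10 µM. With 3 cultures per group no exact test can go below 0.1, and SPINK4 and CLCA1 rest on 0 to 6 fragments in each control library.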
